A study of Mus musculus with 18 samples.

Results

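In mice lacking Beclin 2, 8 genes were followed through tissues: Gas5, Serinc3, Xkr6, Rnf144a, 2610507I01Rik, Ccnb1ip1, BC147527 and Rpl3-ps1. They were taken by gene name, as 8 of the 2202 genes listed in at least 1 of the authors' 5 deposited tables. They had been picked because the tables list them in several tissues in the same direction and because none belongs to an immune gene family. The genes were chosen by the measured ratio of knockout over wild type, so the ratios, their directions and the authors' adjusted p-values below describe the genes and are no test of them.

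Beclin 2 is a relative of the autophagy protein Beclin 1. Messenger RNA was sequenced from 18 samples in 9 groups of 2, all labelled C57BL/6, and 7 of these groups are used here. They are splenic B cells and splenic T cells of wild-type and Beclin 2 knockout mice aged 8 weeks, lymph nodes of wild-type and knockout mice, and lymphoma tissue of knockout mice, none of them stimulated or cultured. Bone marrow derived macrophages of both genotypes, given 100 ng/ml lipopolysaccharide for 3 hours, were not analysed here. The labels gave no age for lymph node and lymphoma, no description of the knockout allele, no purity for the spleen cells, and no word on whether the 2 samples of a group are from different mice. The authors' p-values therefore set the difference between groups against a spread between such samples, and that spread may be technical. The lymphoma had no wild-type counterpart and was set against lymph node of each genotype, so that in the comparison with wild-type lymph node, tissue and genotype cannot be told apart.

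The genes do unlike work. Gas5 is a host gene: its introns carry small nucleolar RNAs, which guide chemical marks on ribosomal RNA, while the spliced transcript is long and non-coding, is turned over during translation, and builds up when lymphocytes and other cells stop growing. Serinc3 is a membrane protein with many membrane-spanning stretches, and in human cells it and its relative SERINC5 lower the infectivity of retroviruses. Xkr6 belongs to the XK-related membrane proteins, of which Xkr8 exposes phosphatidylserine on dying cells. Rnf144a is a ubiquitin ligase of the RING-between-RING class that targets the DNA repair kinase DNA-PKcs in human cells. Ccnb1ip1, also called HEI10, is a ligase needed for crossing over in mouse meiosis and was first described as a partner of cyclin B1. Rpl3-ps1 is a processed pseudogene, a copy of the messenger RNA of Rpl3, which encodes a protein of the large ribosomal subunit. No role is given here for the non-coding transcript 2610507I01Rik or the predicted protein-coding gene BC147527.

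Each table gave 1 mean normalised read count per group, a read count divided by the library's size factor. Such a mean, printed with many digits, still holds the whole reads of both libraries, and these were recovered. Values of a pair of libraries are given below as normalised reads, first the library with the larger size factor and then the other. The size factors ran from 0.842 to 1.19, and the total reads per library cannot be read from tables of called genes. Tables were normalised separately, so a level set beside one from another table is approximate. Becn2 itself and Becn1 were in 0 of the 5 tables, so the targeted gene gave no check of the genotype labels, and because only called genes are listed, markers that should be alike in both genotypes could not check the tissue labels.

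In splenic B cells, 7 of the 8 genes were listed, 2 higher and 5 lower in knockout, while 1.24% of all genes tested there were called, 0.493% as higher and 0.751% as lower. In splenic T cells all 8 were listed, 3 higher and 5 lower, beside 2.35% of all genes (1.67% higher and 0.676% lower). In lymph node 7 were listed, 2 higher and 5 lower, beside 0.475% (0.181% higher and 0.294% lower). In lymphoma against wild-type lymph node all 8 were listed, 3 higher and 5 lower, beside 7.38% (3.34% higher and 4.04% lower). None of the 8 was listed between lymphoma and knockout lymph node, where 1.77% of genes were called (0.7% higher and 1.07% lower). Since these contrasts chose the genes, nothing is read from the counts. Reads could be assigned to both libraries of both groups for 6 of the listed genes in each spleen cell type, 7 in lymph node and 8 in lymphoma, and in each of these cases the ranges of both genotypes were apart. The same was so for 100% of the called genes with solved reads in each of these tables, so it sets these genes apart from no other called gene. Ccnb1ip1 was not listed in lymph node and Rpl3-ps1 was not listed in B cells, which says that their adjusted p did not fall under 0.05 and not that their levels were alike.

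**Figure D1:**
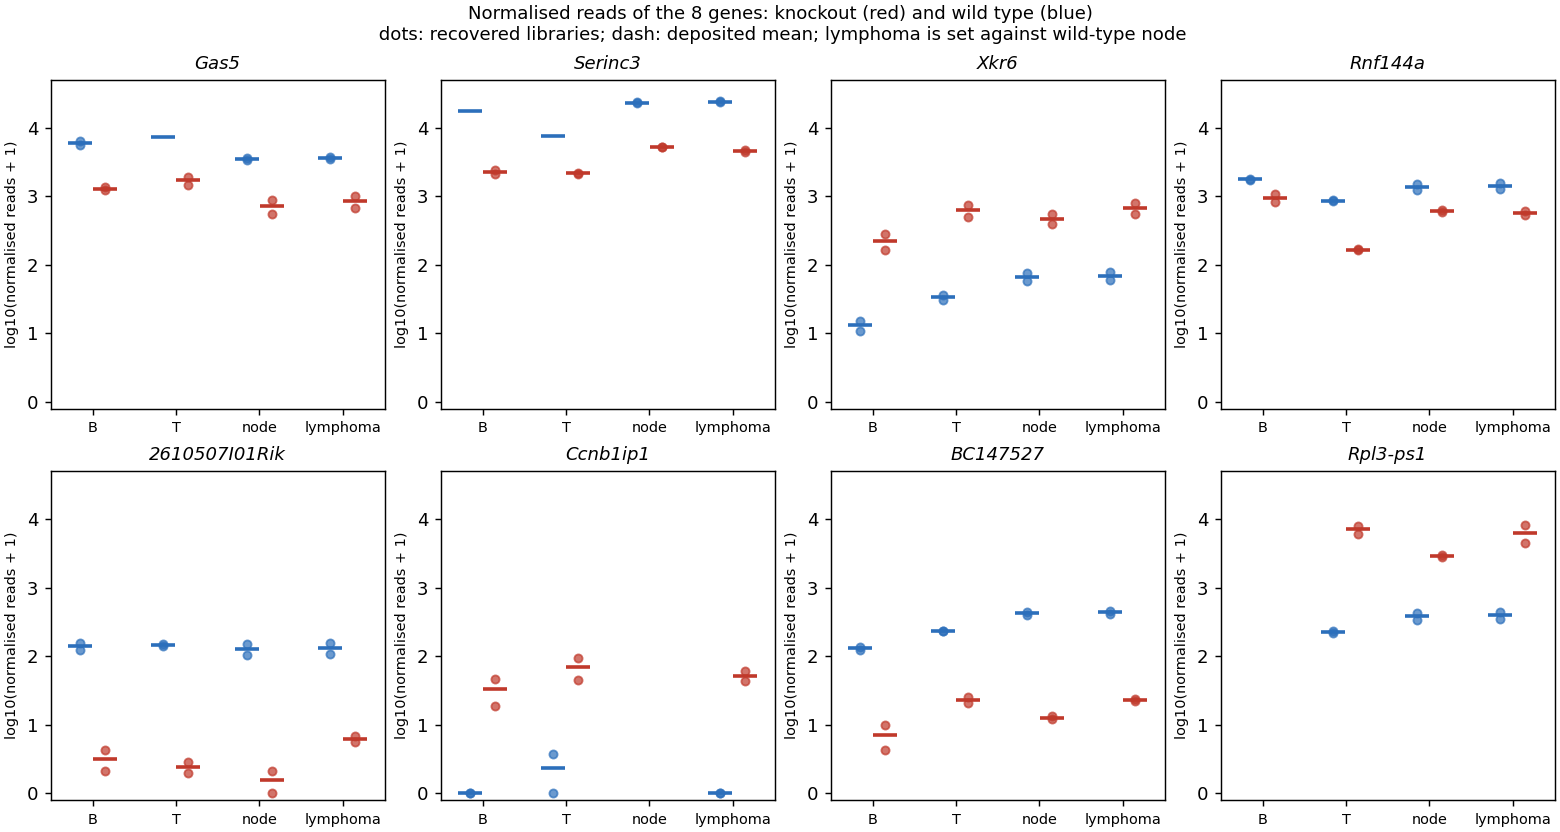
Normalised reads of each of the 8 genes on a log10 scale (log10 of normalised reads plus 1) in B cells, T cells, lymph node and lymphoma, with knockout in red and wild type in blue. Dots are libraries whose reads were recovered and dashes are the authors' deposited means. Where libraries of both genotypes were recovered, red and blue do not overlap, as for 100% of called genes with solved reads. For Gas5 in T cells and Serinc3 in B and T cells the wild type is shown as a mean only. The lymphoma column uses the wild-type lymph node libraries as its blue points.

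Gas5 lies at chr1:161034422-161038539 on the plus strand of GRCm38, has 25 annotated transcripts, and holds 10 annotated small nucleolar RNA genes. In B cells it had 1357 and 1235 normalised reads in the knockout libraries and 6363 and 5524 in the wild-type libraries. In T cells the knockout libraries had 1939 and 1485, and the wild-type mean in the authors' deposited table was 7397.56, which fitted more than 1 pair of reads. In lymph node the values were 561 and 895 in knockout and 3655 and 3385 in wild type. In B cells and lymph node, where all libraries were solved, both knockout libraries were thus far under both wild-type libraries, and the pair of knockout lymph node libraries stood furthest apart among these. The knockout kept 21.8% of the wild-type mean in B cells, 23.1% in T cells and 20.7% in lymph node, which are log2 ratios of -2.20, -2.11 and -2.27. Leaving out 1 library at a time moved the log2 ratio between -2.30 and -2.09 in B cells and between -2.65 and -1.98 in lymph node. In the authors' deposited tables the adjusted p (DESeq) of Gas5 was 2.11e-25 in B cells, 2.39e-29 in T cells and 1.72e-28 in lymph node.

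Lymphoma libraries had 681 and 1028 normalised reads of Gas5, against 3777 and 3491 in the wild-type lymph node libraries on that table's scale, a log2 ratio of -2.09. The tables of lymph node and lymphoma share the wild-type lymph node libraries, so these ratios are not separate evidence. Set against knockout lymph node instead, with reads taken from the other tables and scaled by that comparison's own size factors, lymphoma differed by a log2 ratio of 0.20, with single library pairs running from -0.43 to 0.85 and the libraries overlapping. The 10 small nucleolar RNA genes inside Gas5 appeared in 0 of the 5 tables. Libraries were made from polyadenylated RNA, and such short RNAs carry no such tail. Annotated exons cover 3760 of the 4118 bases of Gas5. The values thus speak of polyadenylated host transcripts, and spliced ones cannot be told from those that keep introns.

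Of 19 other host genes of small nucleolar RNAs on a list, 1 was listed in B cells, beside 1.24% of all genes tested, and 1 in T cells, beside 2.35%. This was Snhg1, lower in knockout B cells at a log2 ratio of -0.81 and an adjusted p (DESeq) of 0.00345 in the authors' deposited table. In knockout T cells Snhg1 was lower at -0.68 and 0.00605. In lymphoma against wild-type lymph node 1 was listed, beside 7.38% of all genes. This was Snhg6, higher in lymphoma at a log2 ratio of 0.89. None of the 19 was listed in lymph node. Another list held 22 names of translation factors and other genes outside the ribosome. Their messages start with the pyrimidine tract that Gas5 carries too. None of the 22 was listed in B cells, T cells or lymph node. In lymphoma against wild-type lymph node 6 were listed, 2 higher and 4 lower, beside 7.38% of all genes tested.

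Serinc3, at chr2:163623272-163645131 on the minus strand, was also lower wherever knockout was set against wild type. In lymph node the knockout libraries had 5305 and 5238 normalised reads and the wild-type libraries 23994 and 22818. In lymphoma the values were 4672 and 4419, against 24798 and 23532 in wild-type lymph node. Replicate libraries lay close together and the genotypes were far apart, and leaving out any 1 library kept the log2 ratio between -2.19 and -2.11 in lymph node. In B cells the knockout libraries had 2126 and 2412 and the wild-type mean was 17871.8 in the authors' deposited table. In T cells the knockout libraries had 2222 and 2108, beside a deposited wild-type mean of 7524.62. Knockout cells of both kinds thus stood at similar normalised values, whereas the wild-type means differed more, and the knockout kept 12.7% of wild type in B cells and 28.8% in T cells.

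The log2 ratio of Serinc3 was -2.98 in B cells and -1.80 in T cells, with lymph node at -2.15 and lymphoma at -2.41 between them. By the authors' p-value it ranked 6th in B cells, 83rd in T cells, 3rd in lymph node and 4th in lymphoma. Lymphoma and knockout lymph node did not overlap, at 4816 and 4568 against 5595 and 5536, but the log2 ratio of -0.25 was small and was not called by the authors. Of the 4 other genes of the serine incorporator family, Serinc5 alone was listed, higher in lymphoma than in wild-type lymph node at a log2 ratio of 0.71 and an adjusted p (DESeq) of 0.000141 in the authors' deposited table.

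Within 1 Mb of Serinc3, 3 genes were called in B cells and 2 in lymph node, all lower, and 4 in lymphoma, all lower, while 1 was called in T cells, where it was higher. The antisense transcript 0610039K10Rik starts beside Serinc3 on the other strand and shares 134 exonic bases with it. This transcript had 2 and 1 reads in knockout B cells and 85 and 82 in wild type. The log2 ratio was -5.55, with an exact 95% counting interval from -7.83 to -3.96. In lymphoma it had 0 reads in both libraries, against 32 and 14 in wild-type lymph node, so it was at least 17.1-fold lower when 3 reads are allowed over the lymphoma group, or 10.8-fold without the wild-type library of 32 reads. Pkig, which encodes an inhibitor of protein kinase A and lies 13.3 kb away, had 326 and 319 normalised reads in knockout B cells and 1808 and 1975 in wild type, a log2 ratio of -2.55. In lymph node Pkig had 603 and 562 against 2183 and 1707, a log2 ratio of -1.74, and in lymphoma its log2 ratio to wild-type lymph node was -1.496. For Pkig the ranges of both genotypes were apart in these tissues, as for 100% of called genes with solved reads. Pkig was not listed in T cells and has no value there. In T cells the called gene was Rims4, 214.6 kb away, with 12 and 19 reads in knockout and 0 in wild type, the opposite direction to Serinc3. Sdc4, a cell surface proteoglycan 779.1 kb away, was lower in B cells at a log2 ratio of -1.07 and in lymph node at -0.82. The counting strand is not given in the sources used here and the library protocol does not mark strand, so reads from the stretch that Serinc3 shares with 0610039K10Rik cannot be told apart.

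The letters around a RefSeq start site (GRCm38.p6) of Gas5, Serinc3, 2610507I01Rik and Ccnb1ip1 are shown as examples of low or high genes. They were picked by hand after the letters had been read, and BC147527 and Rnf144a, which also have entries, are not shown. Each runs from 100 bases before the RefSeq start to 30 bases after that start, on the gene's own strand and 5′ to 3′. Gas5 has 2 such entries and the downstream one, chr1:161035066-161035195, is shown. Serinc3 is chr2:163645114-163645243, 2610507I01Rik is chr11:59202402-59202531 and Ccnb1ip1 is chr14:50795699-50795828, all on the minus strand. Not all of these starts are the outermost one in GENCODE: the start shown lies 744 bases inside the annotated gene for Gas5 and 12004 bases inside it for Ccnb1ip1, whose outermost start is the one near Rpph1. For Serinc3 and 2610507I01Rik the start lies 12 and 46 bases outside the annotated gene. Capitals mark every match, on either strand, to the motifs named after the sequences.
Gas5: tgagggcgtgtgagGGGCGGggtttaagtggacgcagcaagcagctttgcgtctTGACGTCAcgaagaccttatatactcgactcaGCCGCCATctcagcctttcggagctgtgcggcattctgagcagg
Serinc3: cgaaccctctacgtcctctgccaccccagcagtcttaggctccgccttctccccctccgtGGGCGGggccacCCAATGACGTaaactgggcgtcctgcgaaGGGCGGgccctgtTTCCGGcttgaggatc
2610507I01Rik: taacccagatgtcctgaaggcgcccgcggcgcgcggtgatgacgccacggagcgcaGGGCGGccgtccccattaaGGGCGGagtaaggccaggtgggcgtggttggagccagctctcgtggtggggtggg
Ccnb1ip1: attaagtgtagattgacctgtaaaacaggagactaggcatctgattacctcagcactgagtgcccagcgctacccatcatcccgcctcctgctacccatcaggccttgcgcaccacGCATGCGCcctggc

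A promoter entry was found for 6 of the 8 genes, in 7 windows from 250 bases before to 50 after the start, and neither Xkr6 nor Rpl3-ps1 had one. The cyclic AMP response half-site TGACGT stood in 2 of the 7 windows and in 7.51% of all 32851 windows in the table. In Gas5 it formed the palindrome TGACGTCA, which matches on both strands, and in Serinc3 it overlapped the CCAAT box CCAAT by 1 letter. The GC box GGGCGG stood in 5 of the 7 windows and in 35.7% of all. Single windows held the ETS core CCGGAA (Serinc3, 14.9% of all), the YY1 core ATGGCGGC (Gas5, 2.24%), the NRF1 core GCATGCGC (Ccnb1ip1, 2.71%), the interferon-stimulated response element (BC147527, 3.44%) and CCAAT (37.4%). The E-box CACGTG (7.15% of all) and the TATA box TATAAA (13.6%) matched in none of the 7. These motifs were chosen after the letters had been read, so a match is a description of the sequence and bears on no factor.

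Xkr6, at chr14:63606503-63820809 on the plus strand, was higher in every knockout tissue set against wild type. In B cells it had 162 and 277 normalised reads in knockout and 14.2 and 9.97 in wild type. In T cells it had 504 and 750 against 35.2 and 29.7. In lymph node it had 397 and 548 against 56.7 and 75.6. Wild-type levels were low in spleen cells and somewhat higher in lymph node, and the lowest knockout library of each tissue stayed above the highest wild-type library. The fold was 18.2 in B cells, 19.3 in T cells and 7.14 in lymph node. With 1 library left out in turn, the log2 ratio lay between 3.75 and 4.52 in B cells, 3.96 and 4.53 in T cells, and 2.59 and 3.06 in lymph node, so the lymph node range stood under those of both spleen cell types. Between tissues this was not tested.

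Lymphoma had 553 and 792 normalised reads of Xkr6 and wild-type lymph node 58.6 and 77.9 on the same scale, a 9.85-fold difference. Against knockout lymph node the libraries overlapped, at 570 and 819 in lymphoma and 419 and 579 in lymph node. Mtmr9, a member of the myotubularin family 62.5 kb away, was higher alongside Xkr6: in B cells it had 915 and 1045 normalised reads in knockout and 406 and 377 in wild type, a log2 ratio of 1.32. Its log2 ratio was 1.99 in T cells and 1.32 in lymphoma, and it was not listed in lymph node and has no value there. The antisense transcript Gm15918 shares 326 exonic bases with the start of Xkr6, and in knockout T cells it had 14 and 26 reads against none in wild type, which is at least 12.6-fold higher when 3 reads are allowed over the wild-type group, or 8.48-fold without the library of 26 reads. Of 55 other genes annotated within 1 Mb of Xkr6, 1 was called in B cells and 3 in T cells, each higher, and 0 in lymph node. In lymphoma 5 were called, 3 higher and 2 lower. The shares over all annotated genes are those given for Serinc3. No other gene of the XK-related family, nor the scramblase gene Ano6, was listed in any table, out of 8 on the list.

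**Figure D2:**
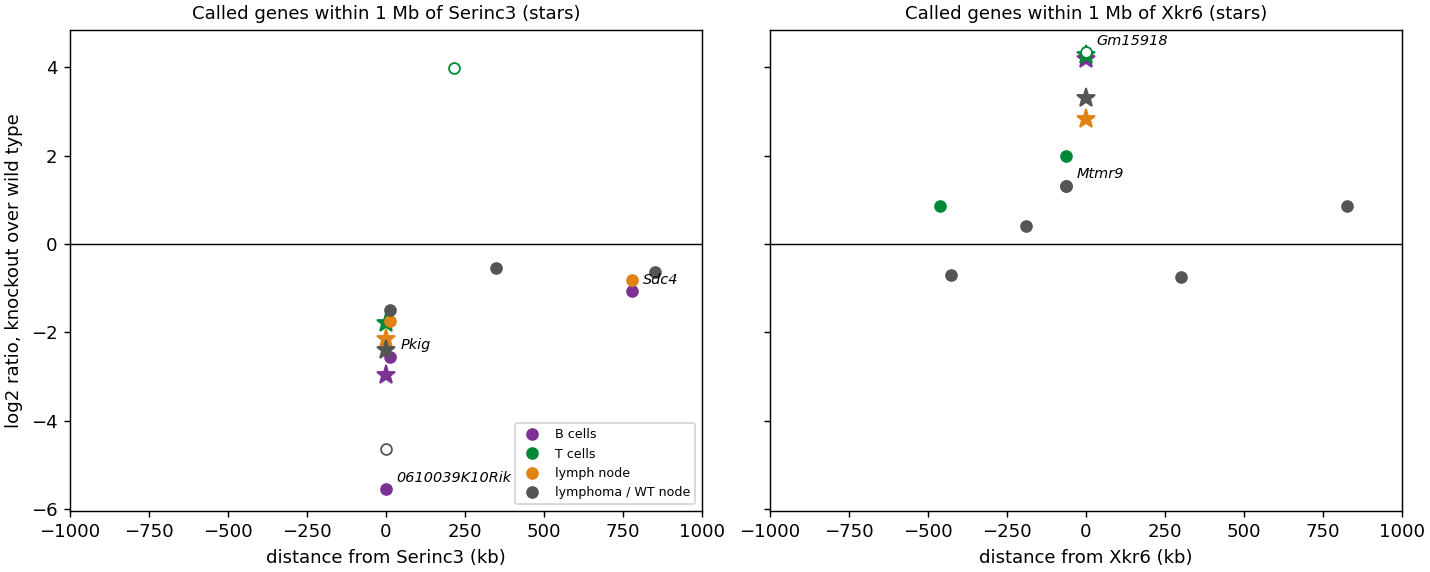
Log2 ratio of knockout over wild type (vertical axis) of called genes within 1 Mb of Serinc3 (left) and Xkr6 (right), by distance in kb (horizontal axis), coloured by tissue. Stars mark Serinc3 and Xkr6 themselves, filled circles other genes, and open circles genes with 0 reads in 1 group. Open circles stand at the log2 ratio with 1 added to both means, which is not a bound. Pkig at 13.3 kb is lower like Serinc3, with log2 ratios from -2.55 to -1.496, and Mtmr9 at -62.5 kb is higher like Xkr6, from 1.32 to 1.99.

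Rnf144a, at chr12:26300964-26415254 on the minus strand, differed in size between tissues. In T cells it had 162 and 168 normalised reads in knockout and 882 and 848 in wild type. In B cells it had 833 and 1073 in knockout and 1752 and 1793 in wild type. In lymph node it had 639 and 598 against 1256 and 1497. The genotypes did not overlap in any of these tissues, but the gap was wide in T cells and less than 2-fold in B cells. The log2 ratio was -2.39 in T cells, with a range of -2.42 to -2.36 when 1 library was left out. It was -0.90 in B cells, with a range of -1.09 to -0.72, and -1.15 in lymph node, with a range of -1.28 to -1.02. The T cell range thus did not meet the others. In the authors' deposited tables the adjusted p (DESeq) of Rnf144a was 6.6e-24 in T cells, 0.00173 in B cells and 0.000379 in lymph node.

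Among wild-type groups Rnf144a was highest in B cells, then lymph node, then T cells, and these pairs of libraries did not overlap, although the tables were normalised separately. In knockout the T cell libraries were far under all others. Lymphoma had 602 and 536 normalised reads against 1298 and 1544 in wild-type lymph node, a log2 ratio of -1.32, and against knockout lymph node the log2 ratio was -0.15, with pairs from -0.28 to -0.03. Of 13 other RING-between-RING ligases on a list, Rnf144b was higher in knockout T cells at a log2 ratio of 1.07 and an adjusted p (DESeq) of 0.00346 in the authors' deposited table, and Rnf19b was lower in lymphoma than in wild-type lymph node at -0.59. None of the 6 names on a list of DNA-PKcs, its Ku partners and other reported targets of the ligase in innate immunity was listed. Of the 21 other genes annotated within 1 Mb of Rnf144a, 0 were called in any of the 5 comparisons.

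The next genes stood near 0 reads in 1 genotype. 2610507I01Rik, a transcript of 1 annotated isoform and 2 exons at chr11:59199836-59202385 on the minus strand, had 1 and 3 reads in knockout B cells and 187 and 123 in wild type. In T cells it had 2 and 1 reads against 155 and 124. In lymph node it had 0 and 1 against 148 and 98. Wild-type libraries of all tissues held around 100 reads or more, and no knockout library of spleen or lymph node held over 3. The log2 ratio was -5.995 in B cells, with an exact 95% counting interval from -7.90 to -4.64, and -6.65 in T cells, from -8.92 to -5.07. In lymph node the single knockout read gave -7.83, with an interval from -13.35 to -5.55, so the 3 tissues cannot be ordered at this depth. These intervals cover counting error only. Without the B cell library that held 3 reads the log2 ratio was -7.00, and without the lymph node library that held 0 it was -6.83.

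Lymphoma libraries held 5 and 6 reads of 2610507I01Rik, a log2 ratio of -4.64 to wild-type lymph node. They were above the 0 and 1 reads of knockout lymph node by a log2 ratio of 3.20, with a counting interval from 0.62 to 8.83, and the gene was not called in that comparison. None of its 50-base stretches occurs in the annotated transcripts of another gene. Within 1 Mb of 2610507I01Rik 107 other genes are annotated, and the called ones went both ways. They were 0 higher and 2 lower in B cells, 2 higher and 1 lower in T cells, and 4 higher and 2 lower in lymphoma. The shares over all annotated genes are those given for Serinc3. The histone gene Hist3h2ba, 250.3 kb away, was lower in T cells at a log2 ratio of -1.69, whereas Nlrp3, an inflammasome sensor 339.2 kb away, was higher there at 1.21.

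BC147527, at chr13:120300392-120308779 on the plus strand, had 3 and 8 reads in knockout B cells and 162 and 123 in wild type. In T cells it had 26 and 20 against 255 and 195. In lymph node it had 13 and 11 against 404 and 417. It was thus low but present in each knockout library. The log2 ratio was -4.42 in B cells, -3.39 in T cells and -5.18 in lymph node, and the counting intervals ran from -5.45 to -3.57, from -3.86 to -2.95 and from -5.84 to -4.61. The intervals of T cells and lymph node did not meet, and that of B cells met both. These intervals cover counting error only and leave out the spread between libraries. Leaving out the B cell library that held 8 reads gave -5.30. Lymphoma had 23 and 24 reads against 404 and 417, a log2 ratio of -4.30. It stood above knockout lymph node in both libraries, at a log2 ratio of 0.90 with a counting interval from 0.17 to 1.68. The authors' test did not call BC147527 in that comparison. Of its 50-base stretches, 13.9% occur in transcripts of Gm8953, so some of its reads may belong to that gene, and its values are uncertain to that extent.

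Ccnb1ip1, at chr14:50789248-50807732 on the minus strand, was the reverse case. It had 42 and 16 reads in knockout B cells and none in either wild-type library, which is at least 23.2-fold higher when 3 reads are allowed over the wild-type group. Without the library of 42 reads this bound fell to 12.8-fold, and the lower limit of the 95% counting interval, at a log2 ratio of 4.19, also lay under the first bound. In T cells it had 100 and 45 reads in knockout and 3 and 0 in wild type, a log2 ratio of 5.67 with a counting interval from 3.92 to 7.79. Lymphoma held 64 and 45 reads against 0 in both wild-type lymph node libraries. This is at least 32.3-fold higher when 3 reads are allowed over the wild-type group, or 27.2-fold without the library of 64 reads. The lower limit of the counting interval, at a log2 ratio of 4.69, lay under the first of these bounds, which is 5.01 as a log2 ratio. Every knockout library listed held at least 16 reads and no wild-type library more than 3. The B cell result was close to the limit of the authors' call, with an adjusted p (DESeq) of 0.0441 in their deposited table, beside 0.00547 in T cells and 4.17e-06 in lymphoma. Leaving out the T cell library with 0 reads lowered the log2 ratio there to 4.67.

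Ccnb1ip1 shares 233 exonic bases with Rpph1, the RNA of ribonuclease P, on the same strand, and 10% of its 50-base stretches occur there, so reads in that stretch cannot be assigned to one of them. Partners in meiotic crossing over were listed once among 13: Spo11, which makes the breaks that start recombination, was higher in lymphoma than in wild-type lymph node at a log2 ratio of 1.83. Of 11 genes of cyclin B and cell division, none was listed between the genotypes in B cells, T cells or lymph node. Ccnb1, Mki67 and Top2a were higher in lymphoma than in wild-type lymph node, at log2 ratios of 0.75, 0.64 and 0.42.

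**Figure D3:**
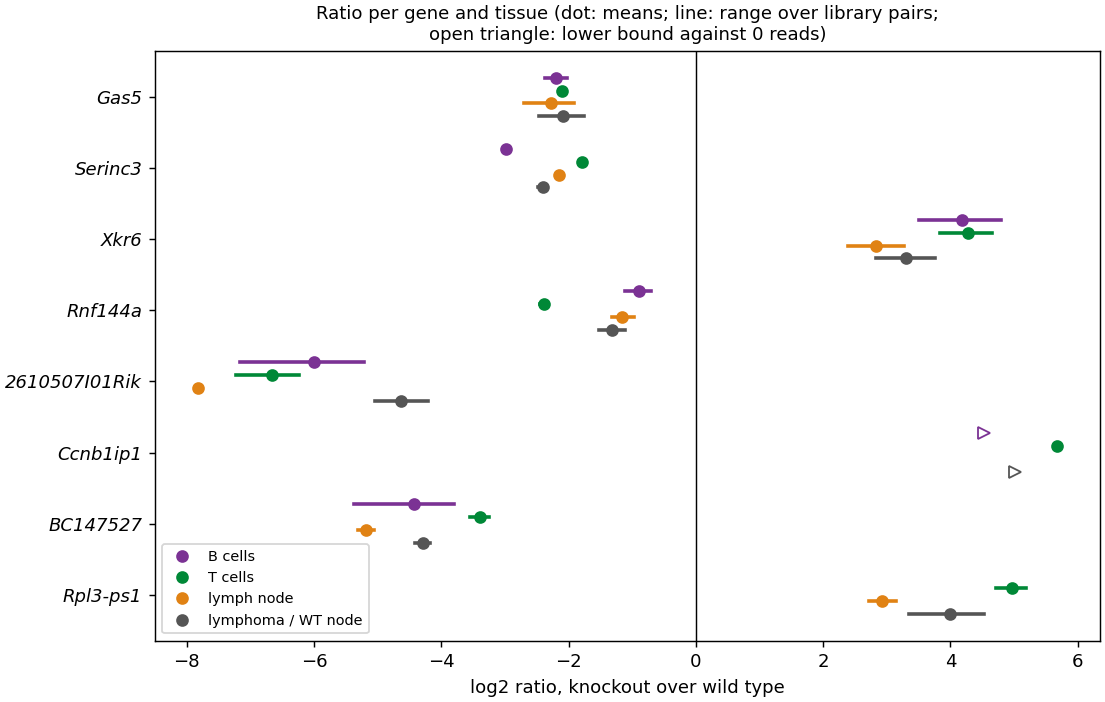
Log2 ratio of knockout over wild type for each gene, by tissue. Dots are ratios of group means, lines the range over pairs of single libraries where reads of both groups are known and above 0, and open triangles lower bounds against 0 reads. Gas5 keeps to log2 ratios between -2.27 and -2.09 across the 4 comparisons, while Serinc3, Rnf144a, Xkr6, BC147527 and Rpl3-ps1 shift between some tissues by more than the lines of single tissues.

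Rpl3-ps1, a single exon at chrX:13202571-13203780 on the plus strand, differs little from the gene it copies. Aligned to a coding transcript of Rpl3 of 1351 bases (GENCODE release M21), 1208 of its 1210 bases were identical, with no gap, and the longest identical run was 728 bases. The 2 differences are C57A and T786C, with the Rpl3 base first and positions counted from the A of its start codon. The 61 bases around each are shown because within the copied stretch only these letters can tell a read of the pseudogene from a read of Rpl3. Capitals mark the differing base. The pseudogene stretches are chrX:13202598-13202658 and chrX:13203327-13203387.
Rpl3, difference 1: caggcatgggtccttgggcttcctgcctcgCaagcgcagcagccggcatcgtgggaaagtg
Rpl3-ps1, difference 1: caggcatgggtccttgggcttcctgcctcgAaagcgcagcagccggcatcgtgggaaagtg
Rpl3, difference 2: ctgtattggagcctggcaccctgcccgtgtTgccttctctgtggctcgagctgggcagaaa
Rpl3-ps1, difference 2: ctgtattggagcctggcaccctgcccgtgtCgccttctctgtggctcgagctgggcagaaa

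Of the 50-base stretches of Rpl3-ps1, 91.4% occur in Rpl3 and 95.7% in Rpl3 or other annotated transcripts, against 14.3% or fewer for the other 7 genes. How the authors treated reads that match more than 1 place is not given in the sources used here, so values of Rpl3-ps1 are uncertain as a measure of transcription from its own locus. In T cells it was listed with 8008 and 6136 normalised reads in knockout and 219 and 234 in wild type, 31.2-fold higher. In lymph node the values were 2787 and 2984 against 425 and 338, 7.56-fold higher. In lymphoma they were 4449 and 8050 against 439 and 349 in wild-type lymph node, 15.9-fold higher, with the libraries of lymphoma nearly 2-fold apart. No groups overlapped. The log2 ratios were 4.96, 2.92 and 3.99, and the ranges with 1 library left out ran from 4.76 to 5.14 in T cells, from 2.76 to 3.09 in lymph node and from 3.498 to 4.35 in lymphoma, so those ranges did not meet.

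Rpl3 itself was listed in T cells only, with a mean of 19495.1 in knockout and 46571.5 in wild type, a log2 ratio of -1.26 and an adjusted p (DESeq) of 3.3e-11 in the authors' deposited table. The pseudogene thus took 26.6% of the sum of both in knockout and 0.484% in wild type. The sum was 26567 in knockout and 46798.1 in wild type, a log2 ratio of -0.82, so the rise of Rpl3-ps1 by 6845.35 was smaller than the fall of Rpl3 by 27076.4. Set against knockout lymph node, lymphoma had 4586 and 8322 normalised reads of Rpl3-ps1 against 2940 and 3154, a log2 ratio of 1.08 with pairs from 0.54 to 1.501. The libraries did not overlap, and the authors' test did not call the gene.

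**Figure D4:**
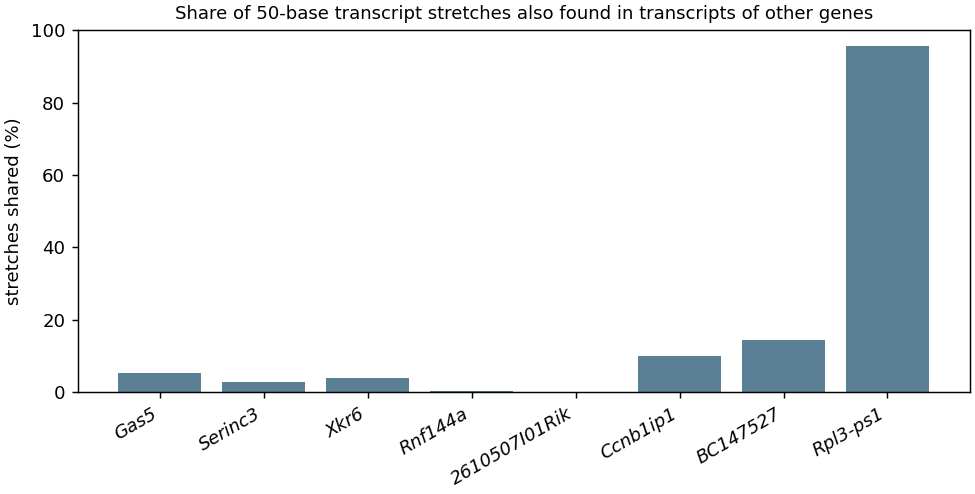
Share of 50-base stretches of each gene's annotated transcripts (vertical axis, percent) that also occur in annotated transcripts of other genes. The bar of Rpl3-ps1 reaches 95.7% and those of the other 7 genes stay at or under 14.3%.

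How constant the ratio was across tissues could be set beside other genes. The tables of B cells, T cells and lymph node, which share no libraries, had 30 genes in common, 6 of them among the 8, and all 30 kept their direction in all 3 tissues. For the 21 of them with finite ratios, the spread was taken as the highest minus the lowest log2 ratio. Gas5 had the smallest spread of the 21, at 0.163. Among the libraries left out in turn, its place rested on those of lymph node. Without the knockout library of 895 normalised reads the spread was 0.54 and ranked 3rd. With any other single library of B cells or lymph node left out it stayed 1st, between 0.106 and 0.223. T cell libraries were not left out in turn, though the knockout ones were recovered and lay apart, at 1939 and 1485 normalised reads. Serinc3 ranked 10th with 1.18, Xkr6 13th with 1.44, Rnf144a 14th with 1.495, BC147527 18th with 1.79 and 2610507I01Rik 19th with 1.83. The median spread was 1.47 for the 6 genes and 1.05 for the 15 others, whose spreads ran from 0.448 to 2.92. The shared direction was part of how the genes were picked. As a description of size, constant fits the means of Gas5 and not those of the other 5, whose spreads lay among those of the other shared genes. Another 2 of the 8 were missing from 1 of these 3 tables and have no such spread.

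**Figure D5:**
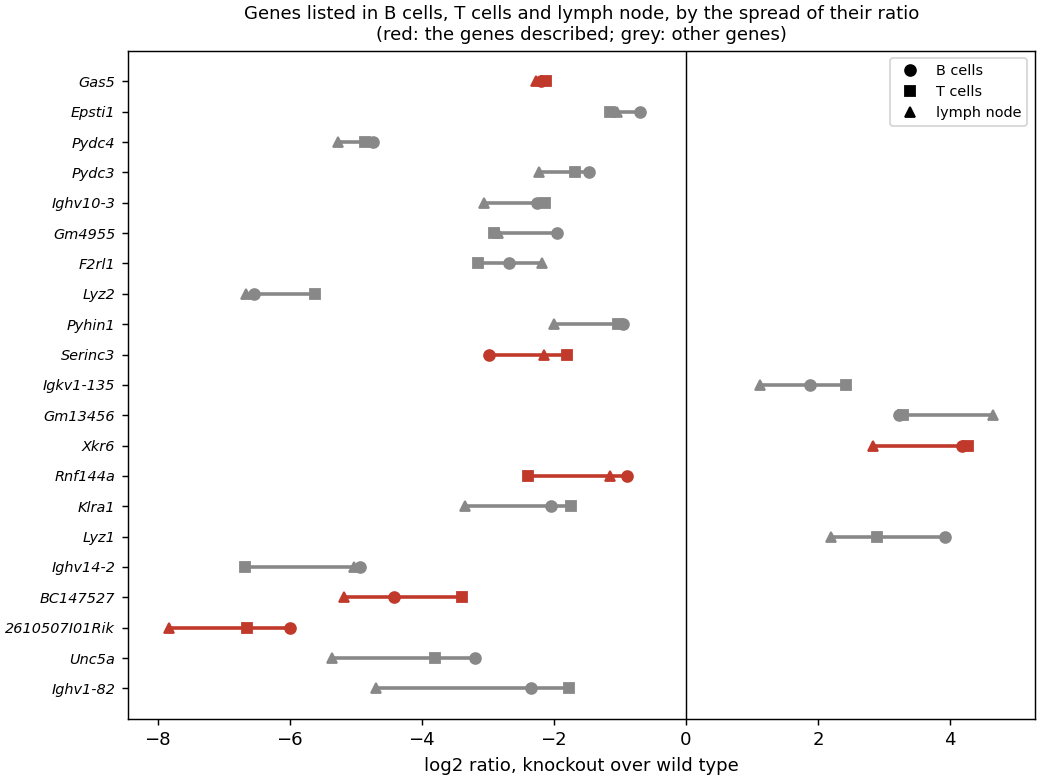
Log2 ratio of knockout over wild type in B cells (circles), T cells (squares) and lymph node (triangles) for the 21 genes listed in all 3 tables with finite ratios, ordered by spread from the smallest at the top. Red marks 6 of the genes described and grey the 15 others. Gas5 is at the top with a spread of 0.163, which rises to 0.54 without 1 knockout lymph node library, and the other red genes lie from 10th place down.

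Genes with the most similar ratios were sought among those listed in the same comparisons, by the mean absolute difference in log2 ratio over the 4 comparisons of knockout with wild type, among 14 candidates. Gas5 was closest to the antibody segment Ighv10-3, at a mean difference of 0.227. Serinc3 was closest to F2rl1, a receptor cleaved by proteases, at 0.445, and BC147527 to Pydc4, an interferon-inducible gene, at 0.521. Rnf144a was closest to Epsti1, another interferon-inducible gene, at 0.568. For Xkr6 the closest was Lyz1, a lysozyme gene, at 0.894, and for 2610507I01Rik it was Ighv14-2, at 0.992. Rpl3-ps1 could be compared over 3 comparisons, among 28 candidates, and was closest to the antibody constant gene Ighg2c, at 1.02. The differences for the last 3 were thus about 1 log2 unit, which is no close likeness.

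By position the 8 genes lay on 7 chromosomes, with Xkr6 and Ccnb1ip1 both on chromosome 14. Becn2, the targeted gene, is at chr1:175920329-175922225 in the RefSeq table for GRCm38, 14.9 Mb from Gas5. In the interval between Gas5 and Becn2, which was looked at after values were known, 10 of 383 annotated genes were listed in B cells (2.61%), 13 in T cells (3.39%), 8 for lymph node (2.09%) and 29 in lymphoma against wild-type lymph node (7.57%). Over all annotated genes the shares were 0.53%, 1.05%, 0.189% and 2.93%. Between lymphoma and knockout lymph node, both from knockout mice, 2 of the 383 were listed (0.522%), beside 0.75% of all genes. Within 1 Mb of Gas5, on either side, 0 of 69 genes were called in B cells, T cells and lymph node, and 3 were called in lymphoma against wild-type lymph node. The part of this interval in the values of Gas5 was not tested, and the other 7 genes are on other chromosomes.

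A list of genes reported to vary between sublines of C57BL/6 or between strains held 11 names. B cells had 3 of them listed, beside 1.24% of all genes tested, and T cells 3, beside 2.35%. Lymph node had 2, beside 0.475%, and lymphoma against wild-type lymph node 4, beside 7.38%. Between lymphoma and knockout lymph node 0 were listed, beside 1.77%. Nnt, which encodes a mitochondrial transhydrogenase and lies 891.4 kb from BC147527, had 832 and 708 normalised reads in knockout B cells and 389 and 472 in wild type, a log2 ratio of 0.84. It was also higher in lymphoma than in wild-type lymph node, at 0.63. Ifi202b, an interferon-inducible gene, had 136 and 137 reads in knockout T cells and 0 and 1 in wild type, and 224 and 367 against 0 and 4 in lymph node. Others were lower. The natural killer receptor genes Klra4 and Klra8 were lower in B cells, at log2 ratios of -2.34 and -2.27. In that comparison 7 of 8 natural killer cell markers were lower too. Ide, the insulin-degrading enzyme, was lower at -0.89 in T cells, -0.81 for lymph node and -0.82 for lymphoma. The part of genetic background in the 8 genes' values was not tested.

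Markers of other cell types also differed between the groups compared. In bulk samples fewer cells of a type and less RNA per cell cannot be told apart. In B cells 7 of 8 natural killer cell markers were lower, their deposited means summing to 2355.53 in knockout and 7027.99 in wild type. In T cells 6 of 8 plasma cell markers were higher, summing to 7792.21 against 2426.79, as were 3 of 8 neutrophil markers. Of 8 macrophage markers there, 4 were higher and 1, Lyz2, was lower, at a log2 ratio of -5.61. Of 10 T cell markers 2, Trbc1 and Cd8b1, were lower, summing to 7635.53 against 12060. In lymph node 7 of 8 neutrophil markers were higher, summing to 1788.9 against 76.5, with 1 of them at 0 in a group, and 4 of 7 adipocyte markers were lower, summing to 1343.39 against 6711.82. Of 8 B cell markers there, 3 were lower, summing to 18917.3 against 30260.9. In lymphoma against wild-type lymph node, 6 of 7 salivary gland markers were higher, summing to 398319 against 20048.1, and all 7 adipocyte markers were lower, summing to 866 against 9823.16. In the same comparison 6 of 8 plasma cell markers were higher, summing to 17271.5 against 6723.09. There 5 of 8 natural killer markers were lower and 1 higher, and 4 of 10 T cell markers were lower and 1 higher. Lymphoma also differed from knockout lymph node: 6 of 7 salivary gland markers were higher, summing to 411423 against 3881.09. Against knockout lymph node, 5 of 8 plasma cell markers were higher too, and 4 of 7 adipocyte and 6 of 8 neutrophil markers were lower. The sums are of the authors' deposited means over listed genes only. The part of cell types in the size of each gene's ratio was not tested.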

How the data were processed

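The authors deposited 5 tables of called genes, 1 per comparison. The signal the authors deposited is a mean over the 2 libraries of a group, each library's read count having been divided by a size factor, and no column holds a single sample. Tools named in the submitters' processing notes are CASAVA 1.8 and DESeq (no version), with the build GRCm38 (mm10). The aligner, the annotation, the counting tool and its treatment of strand are not given in the sources used here. The p-value and adjusted p-value are those the authors deposited, and genes count as called at an adjusted p under 0.05, with no test added, since the tables hold called genes only. The log2 fold change deposited by the authors was replaced by a log2 ratio of the deposited means, because cells of the B and T cell tables held spreadsheet errors. At the foot of the table for B cells, 31 gene names had no values and were left out.

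Whole reads of both libraries were recovered by searching, per group, the pair of size factors nearest 1 that writes each mean as whole reads, with numpy 2.4.6 and pandas 2.3.3. All solved reads were right when this was tested on simulated data, and reads of groups present in 2 tables were the same in both. Genes that fitted several pairs have no values per library, and the replicate number of a recovered library is unknown. The number of genes tested was solved from each p, its rank and its Benjamini-Hochberg adjusted value. Exact 95% intervals of a ratio of reads (scipy 1.17.1) cover counting error only, and folds against 0 reads use 3 reads over the group. Values of lymphoma against knockout lymph node use reads recovered from other tables with the size factors of that comparison, which gave the deposited means of 13 of 13 genes within 1e-05.

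Positions and transcripts came from GENCODE M21 and promoters from RefSeq (GRCm38.p6). The alignment of Rpl3-ps1 used Biopython 1.88. Named genes are the 8 genes, called genes of fixed lists, called genes within 1 Mb of them, their called relatives, and the 2 most similar genes of each gene listed in at least 3 comparisons, of which mostly the closest is printed. Hist3h2ba, Nlrp3, Pkig, Mtmr9 and other neighbours were selected from the called ones for print after their values were seen. The genes and all lists were chosen with earlier results of these data known. One entry of the list of ubiquitin ligases is not reported here and was taken off it. The motifs and their letters, the promoters shown, the 50-base stretch length, the Rpl3-ps1 alignment and the interval from Gas5 to Becn2 were chosen after values or sequences had been seen.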

Additional observations from a re-analysis of the deposited data

How the results depend on the processing

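No paired analysis was possible because the deposited columns are group means and recovered libraries carry no replicate number. The count of the 8 genes called stayed within 1.5 times its value under each alternative run: an adjusted p under 0.01, at least a 2-fold change, a mean of at least 50, 1 added to both means, and each library left out. With a library left out and at least 2-fold asked for, the count ran from 5 to 7 in B cells and from 6 to 8 in T cells, was 7 in lymph node and was 8 in lymphoma against wild-type lymph node. The lower counts leave out Gas5 in T cells and Serinc3 in both cell types, whose wild-type reads were not solved, and Rnf144a in B cells, which is under 2-fold. Of 101 values of single genes under alternatives, 0 reversed. For 92 of them a spread between libraries was known, and 85 moved by less than it and 7 by more. The other 9 belong to genes with unsolved reads or a library at 0 and have no such spread. Leaving out single libraries for the spread of Gas5 and for bounds against 0 reads was added after seeing the data. Without size factors the largest shift in log2 ratio was 0.287. With 1 added to both means, 2610507I01Rik changed from a log2 ratio of -7.83 to -6.35 in lymph node and from -6.65 to -5.90 in T cells, and Ccnb1ip1 in T cells from 5.67 to 4.89, since a few reads stand on 1 side. Genes not listed have no value, so nothing can be said of those that missed the authors' threshold.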
